A study of Simmondsia chinensis with 44 samples.

Results

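Dry seed of jojoba (Simmondsia chinensis) was compared with late stage developing seed over all genes, with 6 RNA sequencing libraries in each group and 12 of the 44 libraries of the series in all. The groups were taken from the library titles and no measured value entered the choice. All seeds, including those of early and mid stage (6 libraries each) and the dissected mid-stage cotyledon, embryonic axis and seed coat and matching whole seed (5 libraries each), came from a single germplasm line, and the labels name no treatment, age in days or collection date. The labels are silent on the presence of a coat on dry seeds and on whether libraries of a stage came from separate plants or seeds. The p-values below therefore rest on differences among these libraries, which may be technical. Total counts ran from 15658880 to 23773845 per library in dry seed and from 10516604 to 15932445 in late seed. The table held 23491 genes, of which 18440 passed the filter on low counts and were tested.

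Jojoba is a desert shrub whose embryo stores liquid wax esters in its cotyledons in place of the oil of most seeds. In the late stage of seed development reserves are laid down, and the seed then loses water and becomes quiescent. A dry seed makes little new RNA. It holds transcripts left from development, among them messages made during late maturation and kept for germination. The files give genes by identifier only, with no names or functions, and no table of names or sequences was used here. The genes were therefore grouped by the size of their change, by the tissue in which they were highest at mid stage, by their direction between early and mid stage and by their level, and 4 genes are given by identifier.

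Dry and late seed were set far apart, and each stage had libraries that lay off its own centre. Each library was placed on the line between the stage means of log2(CPM + 0.5) over all tested genes, where CPM is the read count scaled to a common library total after TMM adjustment, 0 is the late-seed mean and 1 the dry-seed mean, and the library itself was left out of its own mean. Dry-seed libraries stood between 0.932 and 1.06, and late-seed libraries between -0.0241 and 0.0589. In dry seed, library 1 was the nearest to late seed, at 0.932, and library 4 the farthest from it, at 1.06. In late seed, libraries 4 and 6 were the nearest to dry seed, at 0.0554 and 0.0589, and the other 4 lay between -0.0241 and -0.00924. Several results below are therefore also given without libraries 4 and 6.

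**Figure D1:**
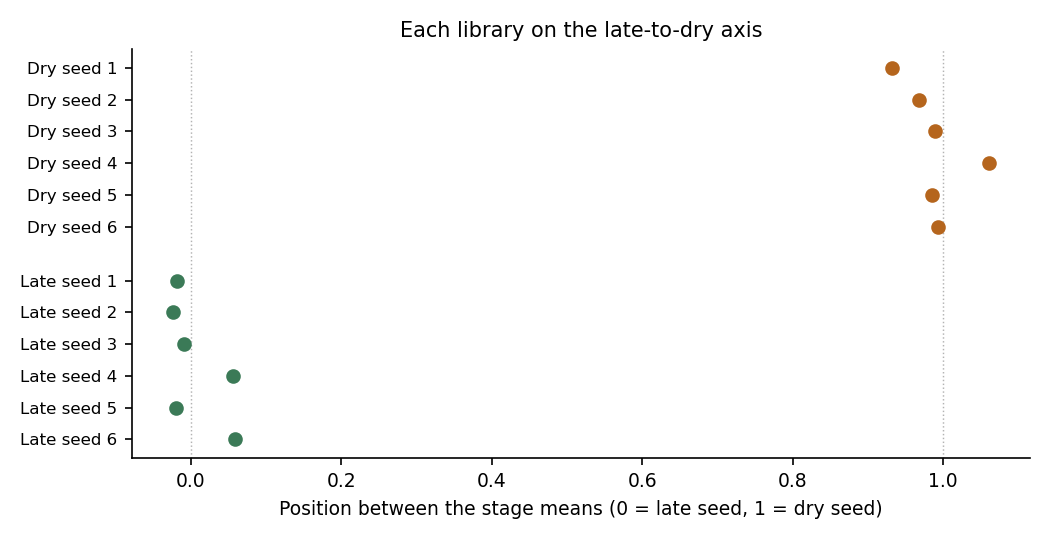
Position of each of the 12 libraries between the late-seed mean (0) and the dry-seed mean (1) of log2(CPM + 0.5), one point per library, over 18440 genes. The 6 dry-seed libraries sit between 0.932 and 1.06, and among the late-seed libraries numbers 4 and 6 stand slightly toward dry seed.

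The values behind these positions were also tallied gene by gene, which is another view of them and no separate evidence. Among the genes higher in dry seed, the late-seed library with the highest level was library 6 in 29.9% and library 4 in 20.5% of them, and among the genes lower in dry seed the late-seed library with the lowest level was library 6 in 27.3% and library 4 in 21.9%. The other 4 late-seed libraries each held that place in 9.61% to 15.3% of genes. In dry seed the library nearest to late seed was most often library 2 (25.3%) or library 1 (24.03%) among genes higher in dry seed, and library 1 (32.4%) among genes lower in dry seed. Dry-seed library 4, the farthest by position, was the nearest in 17.8% of the higher and 11.7% of the lower genes. Dry-seed libraries also differed more among themselves. The standard deviation of log2(CPM + 0.5) over 6 libraries, taken per gene, had a median of 0.307 in dry seed and 0.236 in late seed, and it was larger in dry seed in 66.9% of genes. Without late-seed libraries 4 and 6 the late-seed median was 0.191, and the dry-seed value was larger in 74.7% of genes. Leaving out libraries picked for lying off centre lowers the late-seed median by design, and no dry-seed library was left out. The second share is therefore no added evidence of a wider spread in dry seed. These values describe the libraries and were not tested.

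Fewer genes were detected in dry seed than in late seed. At 1 CPM of the unscaled total or more, 14711 ± 298 genes were detected in dry seed and 16534 ± 49 in late seed (SD, n = 6 each). The difference held at equal depth: with every library thinned to 10516604 counts, the total of the shallowest one, 14825 ± 300 genes had at least 10 counts in dry seed and 16673 ± 47 in late seed. Dry-seed libraries ranged from 14342 to 15281 genes and late-seed libraries from 16606 to 16727, with no overlap (two-sided exact permutation test, adjusted p = 0.00325 over 3 measures, for both counts). The unadjusted p of 0.00216 in these exact tests was the smallest that 6 libraries against 6 can give. The number of genes that together held 50% of the counts was 738 ± 220 in dry seed and 761 ± 74 in late seed, a difference of -23.3 that was not larger than the spread between libraries (exact permutation test, two-sided, adjusted p = 0.792). Dry-seed library 4 had the fewest, 363 genes, library 1 the most, 1043, and late-seed libraries lay between 661 and 840. Without dry-seed library 4 the difference was 51.6, of the other sign (exact permutation test, adjusted p = 0.515). To hold 80% of counts, 3602 ± 410 genes were needed in dry seed and 4198 ± 100 in late seed (exact permutation test, adjusted p = 0.00649).

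Across all genes, most changed, and the falls went deeper than the rises. Of the 18440 genes, 80.1% passed an adjusted p of 0.05 in edgeR's quasi-likelihood test, with 36.8% above and 43.3% below their late-seed level in dry seed. The median log2 change was 1.25 among the 6795 genes higher in dry seed and -1.95 among the 7976 genes lower in dry seed, beside -0.13 over all tested genes and -0.29 over all with upper-quartile scaling. At least 2-fold, 4256 genes (23.1%) were higher and 5908 (32%) were lower. Among those at least 16-fold, 259 genes (1.4%) were higher and 1925 (10.4%) were lower in dry seed. The last count rests partly on genes with few or no counts in dry seed, whose fitted change depends on the count added before the fit, and it was 1269 with an added count of 2. Without late-seed libraries 4 and 6 the counts were 348 genes at least 16-fold higher and 2033 at least 16-fold lower. In bulk seed, fewer cells of a type and less RNA per cell cannot be told apart, and all levels are relative to the total of each library. Tested against a 2-fold change itself with edgeR's glmTreat, 3346 genes were higher and 5093 lower. The stages did not overlap in 11057 genes (60%): all 6 dry-seed libraries lay above all 6 late-seed libraries in 4916 genes (26.7%) and below them in 6141 (33.3%).

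**Figure D2:**
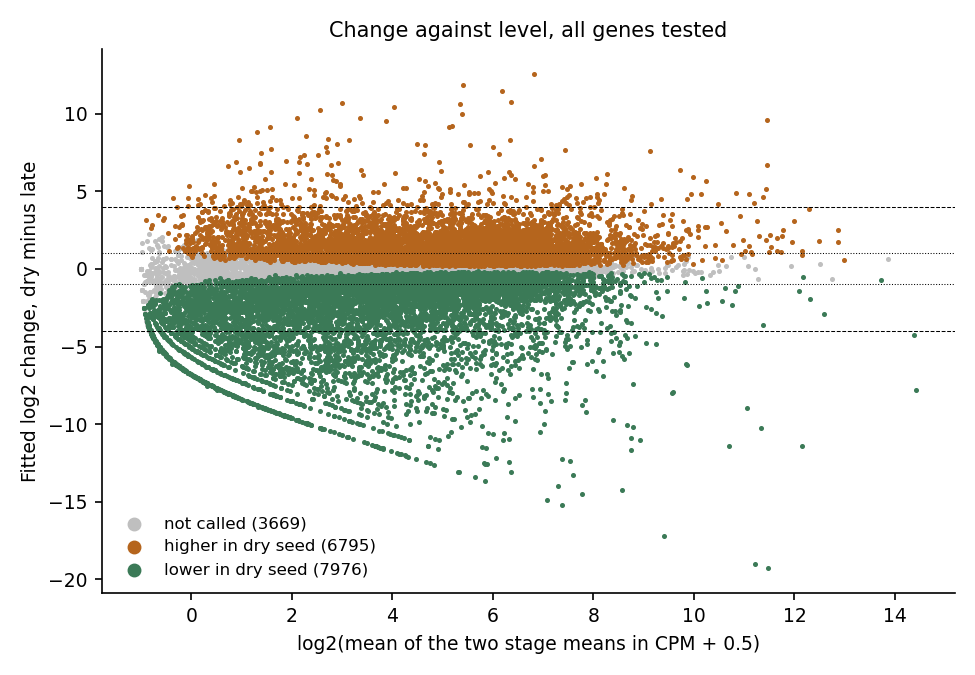
Fitted log2 change (dry minus late) against log2(CPM + 0.5) of the mean of both stage means, one point per tested gene; dotted and dashed lines mark 2-fold and 16-fold. The 6795 genes higher in dry seed seldom pass 16-fold, the 7976 lower ones often do, and the curved lower edge is formed by genes with no or few counts in dry seed.

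Some transcripts of late seed were close to absent from dry seed, and few went the other way. Of 11577 genes with a mean of at least 10 CPM in late seed, 180 (1.55%) had at most 3 counts in every dry-seed library. Their late-seed means had a median of 24.3 CPM and reached 5656 CPM, and 48 of them had no count at all in dry seed. Of 10634 genes with a mean of at least 10 CPM in dry seed, 21 (0.197%) had at most 3 counts in every late-seed library, with a median dry-seed mean of 16.6 CPM and a highest of 225.7 CPM. Dry-seed libraries were mostly deeper than late-seed ones, so a limit of 3 counts mostly stood for a lower level in dry seed.

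The balance of the count pool was turned over. Between the mean profiles, 42.8% of all counts lay on different genes, and 45.1% without late-seed libraries 4 and 6. Genes at least 2-fold and under 16-fold higher, 3997 in number, took 44.5% ± 1.6 of dry-seed counts and 14.2% ± 2.0 of late-seed counts (SD, n = 6 each). The 259 genes at least 16-fold higher took 6.16% ± 1.24 in dry seed and 0.214% ± 0.112 in late seed. The 1925 genes at least 16-fold lower took 0.343% ± 0.070 in dry seed and 18.9% ± 3.9 in late seed, and the 3983 genes at least 2-fold and under 16-fold lower took 5.32% ± 0.62 and 21.9% ± 0.5. These classes were made from the same libraries, so the shares describe them and carry no test. In late-seed libraries 4 and 6 the genes at least 16-fold higher took 0.355% and 0.361% of counts, against 0.133% to 0.147% in the other 4, and the genes at least 16-fold lower took 13.1% and 15.03%, against 20.04% to 22.8%. The loss was concentrated in fewer genes than the gain: 247 genes made up 50% of all percentage points gained in dry seed and 141 made up 50% of those lost, and the 10 genes with the largest shifts gained 5.16 and lost 12.3 percentage points.

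The 4 genes with the largest shifts in CPM show both directions. They were taken as the largest 2 rises and the largest 2 falls among genes called, at least 2-fold changed and without overlap between the stages. Their functions are not given in the files.

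Sc03g0003180 had 9012 CPM in the lowest, 10218 in the median and 23913 in the highest dry-seed library, against 895, 1301 and 4349 CPM in late seed. The highest dry-seed value was that of library 4, and late-seed libraries 4 and 6 stood at 4349 and 4348 CPM with the other 4 at 1306 CPM or less, so the stages did not overlap. The log2 change was 2.52 ± 0.38 (SE, edgeR adjusted p = 1.44e-06) and 3.47 without late-seed libraries 4 and 6. Its mean level was 0.0540 ± 0.0748 CPM in early seed, 13.04 ± 2.26 in mid seed, 2212 ± 1661 in late seed and 12712 ± 5669 in dry seed (SD, n = 6).

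Sc17g0001390 had 5836 CPM in the lowest, 7719 in the median and 18516 in the highest dry-seed library, against 338, 406 and 1166 CPM in late seed. Library 4 was again the highest in dry seed and libraries 4 and 6 the highest in late seed, and no library of one stage reached the other. The log2 change was 3.88 ± 0.50 (SE, edgeR adjusted p = 5.85e-07) and 4.65 without late-seed libraries 4 and 6. No early-seed library had a count of it, and mid seed held 4.05 ± 3.11 CPM (SD, n = 6). In the dissection series it was lower in cotyledon, at 122 ± 30 CPM, than in embryonic axis, at 357 ± 97 CPM (SD, n = 5; log2 difference -1.55 ± 0.51, SE, edgeR adjusted p = 0.0173).

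Sc03g0002590 had 66.4 CPM in the lowest, 185 in the median and 324 in the highest dry-seed library, against 15126, 49255 and 65076 CPM in late seed. The lowest late-seed values were those of libraries 4 and 6, at 15126 and 21974 CPM, still far above every dry-seed library. The log2 change was -7.83 ± 0.63 (SE, edgeR adjusted p = 2.49e-11) and -8.19 without these libraries. It took 0.0159% ± 0.0085 of dry-seed counts and 3.98% ± 1.91 of late-seed counts (SD, n = 6 each), or 5.13% in late seed without libraries 4 and 6. Its dry-seed mean of 192 ± 101 CPM was nearer to that of early seed, 55.1 ± 34.8 CPM, than to that of mid seed, 5733 ± 1558 CPM (SD, n = 6).

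Sc16g0007280 had 626 CPM in the lowest, 2108 in the median and 3346 in the highest dry-seed library, against 27721, 41713 and 46687 CPM in late seed. Library 4 was the lowest of late seed, and the stages did not overlap. The log2 change was -4.27 ± 0.48 (SE, edgeR adjusted p = 1.42e-08) and -4.41 without late-seed libraries 4 and 6. The gene took 0.168% ± 0.080 of dry-seed counts and 3.68% ± 0.64 of late-seed counts (SD, n = 6 each). In the dissection series it was higher in cotyledon, at 65291 ± 14264 CPM, than in embryonic axis, at 23604 ± 5914 CPM (SD, n = 5; log2 difference 1.47 ± 0.40, SE, edgeR adjusted p = 0.00524). All 4 genes were low in seed coat, where Sc03g0002590 averaged 87.2 ± 76.2 CPM, Sc16g0007280 35.9 ± 20.8 CPM, Sc03g0003180 6.18 ± 5.51 CPM and Sc17g0001390 2.10 ± 2.60 CPM (SD, n = 5).

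Both series carry the name mid stage, but their levels of these genes were far apart. In whole seed of the dissection series (n = 5), against mid seed of the time course (n = 6), Sc03g0003180 averaged 218 ± 107 against 13.04 ± 2.26 CPM and Sc17g0001390 23.9 ± 18.0 against 4.05 ± 3.11 CPM (SD). Likewise Sc03g0002590 averaged 22298 ± 8841 against 5733 ± 1558 CPM and Sc16g0007280 15747 ± 6688 against 7085 ± 1173 CPM (SD). The tables were normalized separately, so these levels were not tested against each other. The labels do not say whether the seeds of both series were of the same age.

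**Figure D3:**
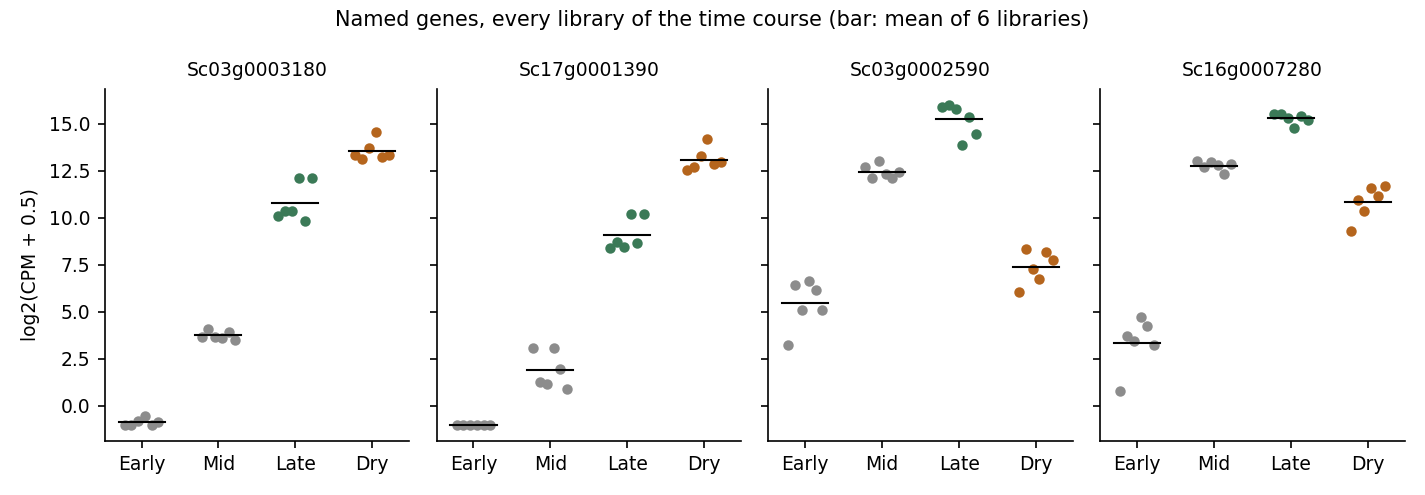
Level of the 4 named genes as log2(CPM + 0.5) in every library of the time course, in the order early, mid, late and dry seed, with a bar at the mean of 6 libraries. Sc03g0003180 and Sc17g0001390 climb at each stage up to dry seed, and Sc03g0002590 and Sc16g0007280 peak in late seed. By the choice of these genes, no dry-seed library overlaps a late-seed one.

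The medians of the most changed genes moved little before dry seed. The median level of the 259 genes at least 16-fold higher was 0.37 in early, 0.55 in mid, 0.34 in late and 5.27 in dry seed on the log2(CPM + 0.5) scale. The classes were chosen by the change from late to dry seed, but the filter, scaling and spread estimate behind the calls used all 4 stages. With only dry and late seed fitted, 235 genes were at least 16-fold higher and 1591 at least 16-fold lower. At a mean of 1 CPM or more, 118 of the 259 genes (45.6%) were detected in early, 124 (47.9%) in mid, 121 (46.7%) in late and 254 (98.1%) in dry seed. The 1925 genes at least 16-fold lower had medians of 3.65, 3.47, 3.09 and -0.79 in the same order. Of them, 1717 (89.2%), 1711 (88.9%), 1670 (86.8%) and 295 (15.3%) were detected. Over all tested genes the medians were 4.26, 4.29, 4.25 and 4.02, and 92.3%, 92.2%, 90.7% and 81.7% were detected. By the choice of these classes late seed cannot be the highest stage of a gene higher in dry seed. Nor can dry seed be the highest stage of a gene lower in it, so the counts that follow are largely set by the choice. Dry seed was the highest of the 4 stages in 252 of the 259 genes and in 3677 of the 3997 genes at least 2-fold and under 16-fold higher. Of the 1925 genes, 920 (47.8%) were highest in early seed, 412 (21.4%) in mid seed and 593 (30.8%) in late seed. Among all tested genes, 25.3% were highest in early seed, 16.1% in mid seed, 21.4% in late seed and 37.2% in dry seed.

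**Figure D4:**
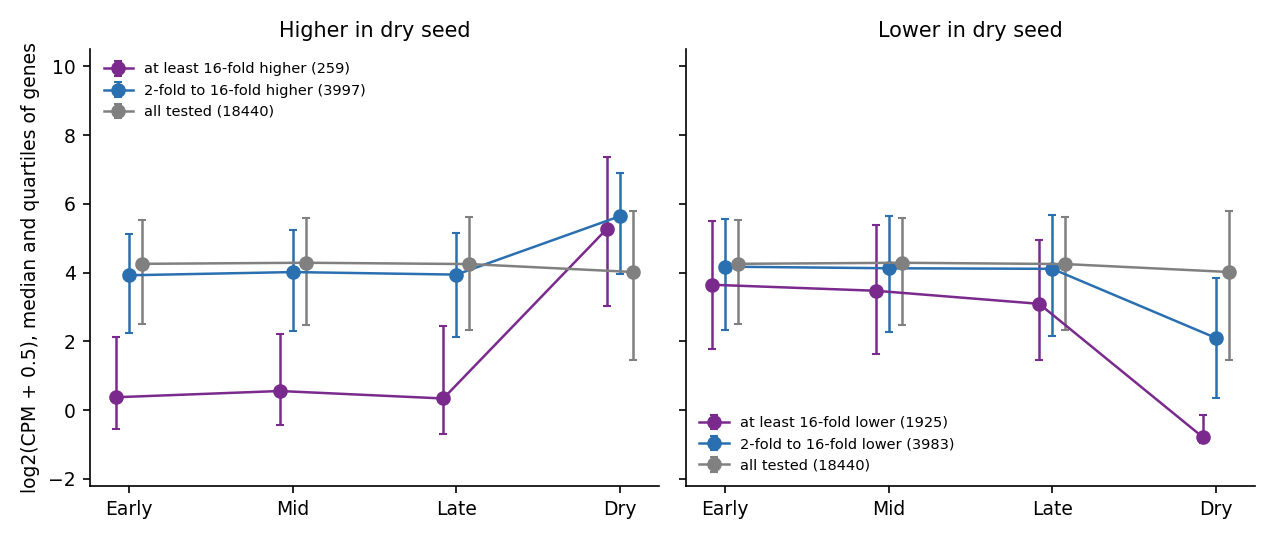
Median level, with quartiles over genes as bars, of size classes of the dry-against-late change across early, mid, late and dry seed, on the log2(CPM + 0.5) scale; grey shows all 18440 tested genes. The medians of the changed classes move by less than 1 unit from early to late seed and apart in dry seed, from which the classes were made.

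Where these genes were expressed was read from the dissected tissues, whose libraries are no part of the comparison of dry with late seed. Of the 259 genes at least 16-fold higher in dry seed, 146 (56.4%) had their highest mean in embryonic axis, 66 in cotyledon and 47 in seed coat, beside 34.9% in embryonic axis over all tested genes. Of the 1925 genes at least 16-fold lower, 1076 (55.9%) had their highest mean in seed coat, 433 in cotyledon and 416 in embryonic axis, beside 38.4% in seed coat over all tested genes. Of the 259 genes, 148 (57.1%) were detected at a mean of 1 CPM or more in embryonic axis, 123 (47.5%) in cotyledon and 99 (38.2%) in seed coat. Over all tested genes these shares were 89.9%, 89.3% and 87.1%. The medians of the 259 genes were 1.11, 0.37 and -0.06 on the log2(CPM + 0.5) scale in the same order, so many of these means were low. The counts by tissue rest on single highest means and were not tested.

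Read the other way, most genes marked by seed coat or cotyledon were lower in dry seed, while those of the embryonic axis went both ways. Tissue-preferred genes were those with a level in 1 dissected tissue at least 4-fold that of both other tissues, each difference passing an adjusted p of 0.05 in edgeR. Of 619 coat-preferred genes 574 passed the filter on low counts in the time course and were tested, of 231 cotyledon-preferred genes 212, and of 541 axis-preferred genes 357. Among the tested coat-preferred genes 5.75% were higher and 81.7% lower in dry seed, among cotyledon-preferred genes 15.1% and 68.4%, and among axis-preferred genes 32.2% and 44.5%, beside 36.8% and 43.3% of all genes tested. The cotyledon shares varied with the direction from early to mid seed. Of 123 cotyledon-preferred genes higher in mid seed 8.94% were higher and 81.3% lower in dry seed, and of 55 not called 18.2% and 60%. Of 34 lower in mid seed 32.4% were higher and 35.3% lower. Between 79.9% and 86.4% of coat-preferred genes were lower in each of these classes. These differences were not tested. In axis-preferred genes the balance depended on the fit and its filter: with only the 12 dry-seed and late-seed libraries fitted and filtered, 43.48% were higher and 35.22% lower. These shares are of the axis-preferred genes that passed the filter on those 12 libraries, which is not the set of 357. A gene that rose in dry seed can pass such a filter through its dry-seed level alone, so the 2 balances do not compare the same genes. In the fit of 4 stages the changes of axis-preferred genes were wide. The quartiles of their log2 change were -2.86 and 1.83, against -1.59 and 0.92 over all genes. Of the 357 genes, 37 were at least 16-fold higher and 51 at least 16-fold lower. Genes with a mean of at least 10 CPM in their own tissue gave like shares, with 29.8% of 208 axis-preferred genes higher and 46.6% lower, and 86.2% of 391 coat-preferred genes and 72.4% of 123 cotyledon-preferred genes lower. At a mean of at least 10 CPM over dry and late seed, 59.8% of 87 axis-preferred genes were higher and 25.3% lower, and of genes without tissue preference 46.2% were higher and 36.3% lower, against 38.2% and 41.6% with no limit. A gene that rose in dry seed can pass that limit through its dry-seed level alone. Without late-seed libraries 4 and 6, 5.40% of coat-preferred genes were higher and 81.2% lower, 13.2% and 67.45% of cotyledon-preferred genes, and 31.65% and 40.06% of axis-preferred genes. Since the state of the coat in dry seed is not stated, a missing coat and a lower level of these transcripts in it cannot be told apart.

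Genes that had fallen between early and mid stage had a smaller share of higher and a larger share of lower genes in dry seed than the other classes. The comparison of mid with early seed shares no library with that of dry with late seed, though both came from the same fit. By edgeR it called 49.6% of genes. Of 4344 genes lower in mid than in early seed, 30.1% were higher and 51.3% lower in dry seed, beside 36.8% and 43.3% of all tested genes. Of 4798 genes higher in mid than in early seed, 39.3% were higher and 41.6% lower, and of 9298 genes not called between them 38.7% and 40.4%. Where the change from early to mid seed was also at least 2-fold, both directions had fewer higher and more lower genes than all tested genes. The shares were then 30.2% higher and 49.2% lower for genes that rose, and 20.4% and 60.8% for genes that fell. Without tissue-preferred genes, the 3927 genes lower in mid seed still had 32.1% higher and 49.3% lower in dry seed. At a mean of at least 10 CPM over early and mid seed the shares were 31.97% and 51.8% of 2809 genes. At a mean of at least 10 CPM over dry and late seed, where the same caution applies, they were 42.3% and 40.9% of 2290 genes, beside 44.6% and 38.1% of genes higher in mid seed and 47.4% and 35.2% of genes not called. Every class thus moved toward higher genes under that limit, and the classes lay closer together than without it. Genes lower in mid seed still had the smallest share of higher and the largest share of lower genes. The comparison itself helps to set that limit, so this adds no support. The difference between these classes was not tested.

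**Figure D5:**
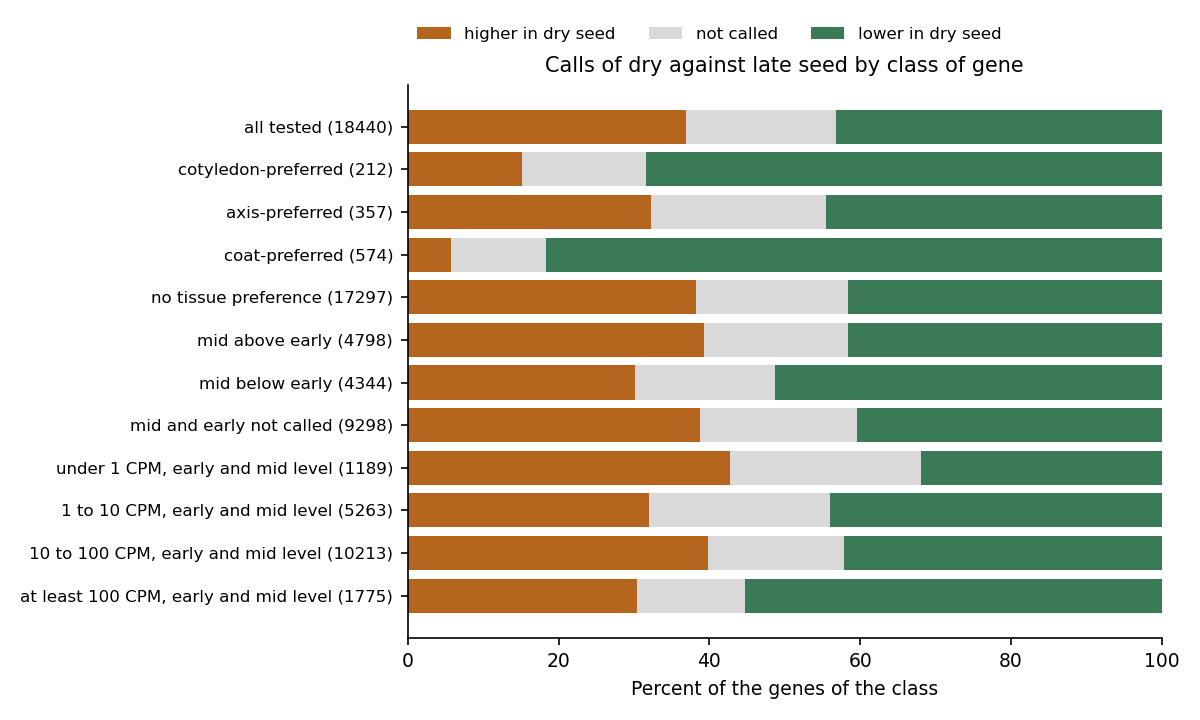
Percent of tested genes called higher (left), not called (middle) or called lower (right) in dry seed by edgeR, by tissue preference in the dissection series, by direction of mid against early seed, and by mean level over early and mid seed; numbers of genes are in brackets. Coat-preferred genes, at 81.7% lower, stand farthest from all tested genes, at 43.3%.

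The balance of calls by level depended on which libraries set the level. Over all tested genes 36.8% were higher and 43.3% lower in dry seed. With the level taken over the 12 dry-seed and late-seed libraries, the share of higher genes was 9.4% under 1 CPM, 25.6% from 1 to 10, 42.8% from 10 to 100 and 56.2% at 100 CPM or more, and the share of lower genes was 60.8%, 51.6%, 39.1% and 29.5% in the same order. A gene that rose in dry seed can pass such a limit through its dry-seed level alone. With the level taken from early and mid seed, the shares followed no single order: 42.7%, 31.96%, 39.8% and 30.4% of genes were higher and 31.9%, 43.97%, 42.1% and 55.3% lower, from the lowest level to the highest. A gene under 1 CPM in early and mid seed could pass the filter on low counts through its late-seed or dry-seed libraries, so the shares of that class are set in part by the filter. Among the 1775 genes at 100 CPM or more in early and mid seed, the share of lower genes was above and that of higher genes below the shares of all tested genes, a difference that was not tested.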

How the data were processed

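Per the labels' protocols, RNA came from a hot-borate extraction and a stranded mRNA kit was used. Trimmomatic, STAR and DESeq2 are named in the submitters' processing notes. Information on the counting step, genome build, annotation and strand setting was not given in the sources used here. Gene-level raw read counts, as whole numbers, were deposited by the authors and used. Their normalized tables of the same libraries were not used here.

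Columns were matched to libraries by the names in the labels. Every pair of libraries of a stage differed by more than sampling noise, with a chi-square of at least 50.1 in dry and 16.02 in late seed per degree of freedom. The main test was edgeR 4.0.16 in R 4.3.3 (TMM, filterByExpr defaults, estimateDisp, glmQLFit, glmQLFTest) with the 4 stages in 1 fit. Its p-values were adjusted by the Benjamini-Hochberg method, and genes with an adjusted p under 0.05 were called. The fit was first tried on simulated data. No result of that trial is given here, so it adds no evidence for the calls or their balance in these libraries. SEs are the log2 change divided by the square root of F. Tissue contrasts came from a like fit of the dissection series. Library measures used two-sided exact permutation tests (scipy 1.17.1).

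Named genes are the 2 largest rises and 2 largest falls in mean CPM among genes called, at least 2-fold changed and without overlap. Lists by gene function and cell type markers were planned and not used, since they need names. Members and lists were chosen with earlier results of these data known. Single genes are uncertain where reads of near-identical copies, or of antisense genes if strand was ignored, were counted together. Alternatives were DESeq2 1.42.0, DESeq2 size factors, upper-quartile scaling, no filter, a replicate block, only dry and late seed, other thresholds, each library left out, and late-seed libraries 4 and 6 left out. A split of tissue and mid-early classes by the mean level of dry and late seed was tried first. After its values were seen, splits by level in the tissues or in early and mid seed were preferred, since the comparison itself sets the first, and both are given. These splits were chosen after seeing the data. Counts of called genes are given without an error range.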

Additional observations from a re-analysis of the deposited data

Results flagged for a closer look

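Of the 30 sets of 6 values examined, 6 were flagged, and all 6 were sets of dry-seed libraries. In each of them dry-seed library 4 stood apart from the other 5, with a gap to the nearest library of more than 0.625 of the whole range. Chance flags about 5% of such sets, and these sets are not independent, since shares of counts sum to a whole. It had the highest level of Sc03g0003180, 23913 CPM, and of Sc17g0001390, 18516 CPM. Its share of counts was the highest on genes at least 16-fold higher in dry seed, 8.55% against 4.92% to 6.05% in the other dry-seed libraries. It was also the highest on genes at least 2-fold and under 16-fold higher, 47.7%. Its share was the lowest on genes higher by under 2-fold, 17.1%, and on genes lower by under 2-fold, 6.45%. The library had the lowest TMM factor of the 12, 0.668. The CPM values of Sc03g0003180 and Sc17g0001390 were scaled with this factor, and a low factor raises them, while the shares of counts were not scaled. The part of library composition in these values was not tested.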

How the results depend on the processing

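Of 662 values recomputed over 51 results, 645 kept their direction and side of the threshold, or their size within 1.5 times for a count or share. Calls higher and lower in dry seed numbered 6741 and 8085 by DESeq2, 6418 and 6958 with only dry and late seed fitted, and 6082 and 8653 under upper-quartile scaling. Without late-seed libraries 4 and 6, 95.5% of the genes called higher and 95.8% of those called lower kept their call, and no gene was called in the opposite direction in these refits or with single libraries left out. The rest moved as follows, and the cause was not tested beyond the change of setting itself. Genes at least 16-fold higher numbered 429 with no filter, and those at least 16-fold lower 1269 with a prior count of 2. With tissue classes at 16-fold, 9.38% of cotyledon-preferred and 2.22% of coat-preferred genes were higher. At a mean of at least 10 CPM over dry and late seed, a limit tried first and chosen after seeing the data, 59.8% of axis-preferred genes were higher and 25.3% lower, and 8.79% of coat-preferred genes were higher. With levels from early and mid seed, added after seeing the data, 42.7% of genes under 1 CPM were higher and 31.9% lower, and 30.4% of those at 100 CPM or more were higher and 55.3% lower. Genes at or under 3 counts in every dry-seed library numbered 752 from a late-seed mean of 1 CPM and 48 at 0 counts, and in late seed 144 and 3. The difference in genes that hold 50% of counts ranged from -84.4 to 51.6 with single libraries left out, and at 80% of counts it was -596 (exact permutation test, adjusted p = 0.00649).

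Replicate numbers are shared by the stages in the labels, which do not say what they mark. Deviations of same-numbered dry-seed and late-seed libraries correlated between -0.0631 and 0.112 over genes, with 1 of 6 pairs above 0.1, and 1 dry-seed library correlated best with its own number, so the numbers were not taken as pairs. With the replicate number as a block, 6705 genes were higher and 8007 lower in dry seed.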

Other observations

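The identifiers carry 26 numbered prefixes, and changes were spread over all of them. Between 31.02% and 41.7% of the tested genes of a prefix were higher in dry seed and between 39.3% and 48.4% lower, with 340 to 976 genes tested each. The 14 tested genes with the prefix ScUN differed from this range: 10 of them were higher and 1 lower in dry seed, with a median log2 change of 3.36. Genes next to each other in identifier order shared large falls more often than the overall rate, since 370 of the 1924 genes at least 16-fold lower that had a next tested gene (19.2%) were followed by another such gene, beside 10.4% of all tested genes. For genes at least 16-fold higher this was 14 of 258 (5.43%), beside 1.4%. The sources used here do not say whether identifier order follows the genome, and near-identical neighbouring copies may share reads. None of these values was tested.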
